A study of Homo sapiens with 47 samples.

Results

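The clone C1 was compared with its parent, wild-type HAP1, in the 4 libraries titled HAP1 C1 and the 4 titled HAP1 WT, which are 8 of the 47 libraries of the series and 8 of its 32 HAP1 libraries. HAP1 is a near-haploid human line derived from a chronic myeloid leukemia. C1 was obtained by transfecting WT cells with Cas9 and a pair of guides against exons 4 and 13 of NUP58, sorting single cells and keeping the smallest viable colonies. It carries a small deletion in exon 4 and an insertion in exon 13 that introduces a premature stop codon, and the RNA was taken at the first passage after cloning. The 20 libraries of the sister clones C2, C3, C4, C5 and C6 (4 each) and the 4 libraries of EV, a line given Cas9 without a guide, served as further comparisons. Each mutant line is 1 clone, so that in C1 an effect of the edit and a trait of the founding cell cannot be told apart, and its 4 libraries are experimental replicates of that clone.

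NUP58 is one of the FG-repeat nucleoporins that line the central channel of the nuclear pore complex (NPC), where it forms a subcomplex with NUP54 and NUP62. FG repeats bind karyopherins, the receptors that carry proteins across the nuclear envelope, and nucleoporins are also known for roles in the expression of developmental genes. The targeted exons are shown because both hold the mutations that define C1. They are given 5′ to 3′ on the plus strand of chromosome 13 as the reference genome GRCh38 has them, not as the clone has them, with exon 4 of 150 bases at chr13:25312883-25313032 and exon 13 of 202 bases at chr13:25331357-25331558 (transcript ENST00000381736, GENCODE release 44).
NUP58 exon 4: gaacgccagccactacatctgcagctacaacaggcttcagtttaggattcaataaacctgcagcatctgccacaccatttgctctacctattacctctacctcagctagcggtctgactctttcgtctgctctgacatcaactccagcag
NUP58 exon 13: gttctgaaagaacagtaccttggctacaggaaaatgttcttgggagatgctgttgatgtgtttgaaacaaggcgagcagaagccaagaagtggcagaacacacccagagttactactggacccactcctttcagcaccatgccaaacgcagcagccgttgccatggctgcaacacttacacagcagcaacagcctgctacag
The length of exon 4 leaves a remainder of 0 after division by 3 and that of exon 13 a remainder of 1, so that of this pair only exon 4 can be left out of the transcript without a shift of the reading frame.

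Values are FPKM, fragments scaled to transcript length and to all mapped fragments, and differences are between means of log2(FPKM + 1), on which changes of weakly expressed genes come out too small. Genes were tested with limma's moderated test, and called where the Benjamini-Hochberg adjusted p was under 0.05. The number of fragments is unknown, but relative depth, read from the values of the lowest genes, was 0.760 to 0.992 in C1 and 0.806 to 1.00 in WT. Libraries correlated across genes with an r of 0.950 to 0.986 within C1, 0.938 to 0.982 within WT and 0.932 to 0.977 between them, and no pair held identical values. BCR and ABL1, the genes chosen to mark HAP1, summed to an FPKM of 21.1 to 24.6 in C1 and 18.9 to 23.2 in WT, which does not by itself identify the line. The 5 blood cell markers summed to at most 0.149, and neither these nor 5 of the 6 colon markers reached the level needed for testing. The colon marker that did was CDX2, at 2.73 to 5.03 in C1 and 1.84 to 4.21 in WT. The 5 fibroblast markers, of which COL1A1 was tested, summed to 3.30 to 6.80 in C1 and 3.73 to 10.4 in WT.

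The edited gene was lower in every C1 library. NUP58 had an FPKM of 11.3, 9.10, 10.2 and 9.96 in C1 replicates 1 to 4, against 34.3, 34.7, 50.4 and 45.8 in WT. The groups did not overlap, and the mean of C1 was 24.6% of that of WT. The difference on the log2 scale was -1.91 (SE 0.15, adjusted p = 0.000363), and an exact two-sided permutation test gave p = 0.0286, the smallest that the 70 arrangements of 4 against 4 libraries allow. The 7 tested genes within 1 Mb of NUP58 ran from -0.21 to 0.71 with a median of 0.13, and none was called. By chromosome, the median difference in C1 over the genes tested ran from -0.09 (chromosome 14) to 0.01 (chromosome 21).

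C1 differed from WT in a small set of genes. Of 13160 genes tested, 63 were called, 38 higher and 25 lower, or 0.479% (0.289% higher and 0.19% lower). Of these, 47 differed by more than 2-fold. Where p was under 0.01 without adjustment and the fold exceeded 2, 117 genes (0.889%) passed, 62 higher and 55 lower, and 1542 genes had an unadjusted p under 0.05. In all 63 called genes the C1 and WT libraries did not overlap, as was the case for 1111 of all genes tested (8.44%). Same-numbered C1 and WT libraries varied together to an uneven degree (correlations of 0.15 to 0.476, against -0.362 to 0.301 for different numbers). When this pairing entered the fit as a replicate block, 197 genes (1.5%) were called, 92 higher and 105 lower, among them all 63. The median difference over all genes tested was -0.03.

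**Figure D1:**
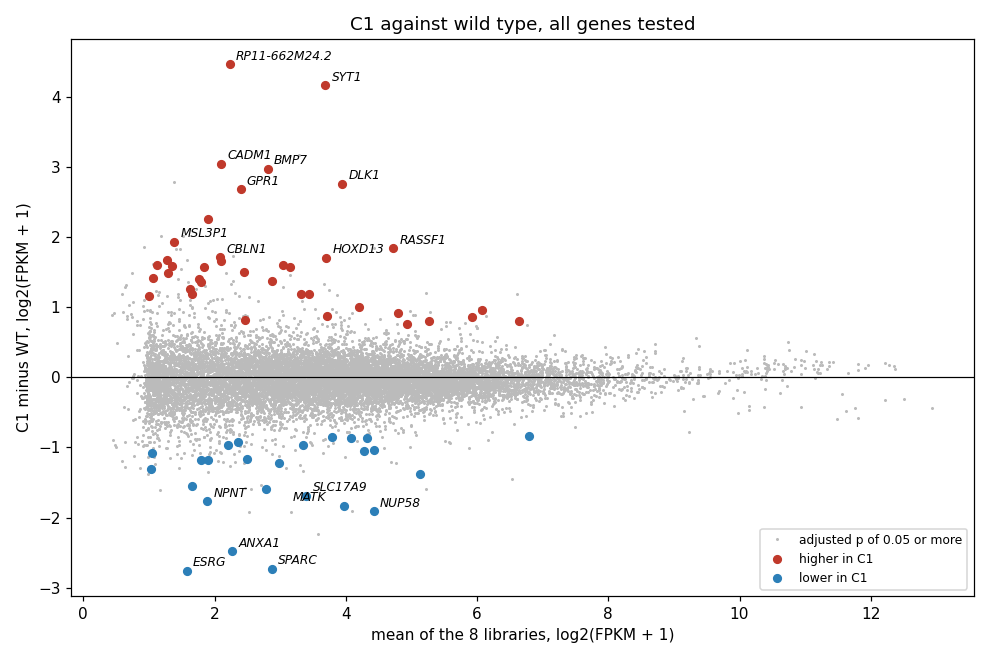
Difference between the means of C1 and WT (vertical axis, log2(FPKM + 1)) against the mean of the 8 libraries (horizontal axis, log2(FPKM + 1)) for each of the 13160 genes tested. The 38 genes called higher (red) reach 4.46 and the 25 called lower (blue) reach -2.75, while grey points are genes not called.

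SYT1, BMP7 and CADM1 were among the highest genes. SYT1, synaptotagmin-1, the calcium sensor of synaptic vesicle release, had an FPKM of 44.9, 42.2, 53.7 and 80.4 in C1 and of 2.23, 2.98, 1.24 and 1.98 in WT. Every C1 library was far above every WT library, and the difference was 4.16 (SE 0.231, adjusted p = 6.08e-05), a 17.9-fold change. BMP7, a secreted ligand of the bone morphogenetic protein family, had 22.03, 19.95, 16.4 and 16.8 in C1 and 1.88, 2.14, 1.28 and 0.922 in WT, a difference of 2.97 (SE 0.188, adjusted p = 0.000109). The EV line also stood high in BMP7, with a mean of 11.2. Its libraries (8.15 to 13.5) all lay below those of C1, but the difference of 0.72 was not called (adjusted p = 0.0738). CADM1, an immunoglobulin-type cell adhesion molecule, had 12.6, 15.1, 10.3 and 8.41 in C1 and 0.270, 0.164, 0.153 and 1.91 in WT, where 1 library stood above the other 3. The difference was 3.05 (SE 0.311, adjusted p = 0.00219).

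DLK1, an imprinted relative of the Notch ligands, had 28.6, 61.3, 19.9 and 66.3 in C1 and 3.62, 3.75, 12.2 and 3.26 in WT. Its libraries spread widely in both lines, and the difference of 2.76 (SE 0.446, adjusted p = 0.0282) lost its call when any of 6 single libraries was left out (C1 replicate 1, 2 or 4, or WT replicate 1, 2 or 4), with an adjusted p of 0.0588 to 0.119. GPR1, a receptor for the adipokine chemerin, had 10.2, 26.8, 9.44 and 8.64 in C1 against 0.712 to 1.32 in WT (2.68, SE 0.312, adjusted p = 0.00670). RASSF1, a tumour suppressor of the Ras association family, rose from 12.97 ± 0.740 to 49.9 ± 10.5 (SD, n = 4 each, adjusted p = 0.000693). CBLN1, cerebellin-1, a secreted organizer of synapses, rose from 1.39 ± 0.496 to 6.87 ± 1.88 (SD, n = 4 each, adjusted p = 0.00985). Both were above WT in all 4 C1 libraries, though the adjusted p of CBLN1 passed 0.05 without C1 replicate 4.

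The gene with the highest fitted difference, RP11-662M24.2, was listed at 0 in all WT and EV libraries and at 18.6, 39.0, 9.35 and 28.2 in C1, so that no fold is given. It has no position in GENCODE release 44 under its identifier and was not followed further. The pseudogene MSL3P1 had 2.89 to 5.68 in C1 against at most 0.547 in WT, and the long noncoding RNA AC009110.1 had 2.41 to 5.17 against at most 0.757. MSL3P1 is a processed copy of MSL3 and can share reads with it, so its value is uncertain.

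SPARC, ANXA1 and ESRG were lowest. SPARC, a matricellular glycoprotein that binds collagen, had 2.42, 1.17, 1.53 and 2.53 in C1 and 18.4, 24.3, 15.1 and 15.1 in WT, a difference of -2.73 (SE 0.213, adjusted p = 0.000363). ANXA1, the phospholipid-binding protein annexin A1, had 1.23, 0.593, 0.971 and 1.46 in C1 and 16.5, 9.47, 9.60 and 7.60 in WT (-2.48, SE 0.238, adjusted p = 0.00138). SPARC was at 10.5% and ANXA1 at 9.86% of the WT mean, without overlap. ESRG, a noncoding RNA of embryonic stem cells, had at most 0.405 in C1 and 3.59 to 14.6 in WT, and its difference of -2.75 (adjusted p = 0.00985) rested on C1 values close to 0 and was not called without C1 replicate 4.

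Other genes among the 12 lowest had roles in signalling, transport and lipid synthesis. MATK, a kinase that restrains Src family kinases, fell from 29.5 ± 8.54 to 7.61 ± 2.59 (SD, n = 4 each). NPNT, the integrin ligand nephronectin, fell from 5.94 ± 1.44 to 1.09 ± 0.723, and SLC17A9, which loads ATP into vesicles, from 18.2 ± 3.84 to 5.05 ± 1.53 (SD, n = 4 each). GPAT3, an acyltransferase of triglyceride synthesis, fell from 11.1 ± 2.11 to 3.00 ± 0.772, and MYRIP, which links Rab27 vesicles to myosin, from 4.43 ± 0.874 to 0.837 ± 0.160 (SD, n = 4 each). S100A11 fell to 36.1%, OSTF1 to 37.7% and the guanine nucleotide exchange factor ARHGEF5 to 13.7% of the WT mean. The adjusted p of these 8 genes ran from 0.00753 (GPAT3 and MYRIP) to 0.0215 (ARHGEF5). Leaving out 1 library took the call from NPNT in 6 of 8 cases, from ARHGEF5 in 5, from S100A11 in 4, from MATK in 2 (C1 replicate 4 or WT replicate 1) and from SLC17A9 in 1 (WT replicate 1).

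Gene lists by pathway put these calls in context. The lists were chosen with earlier results of these data known, and their counts are read beside the 0.479% of all genes that were called and the median of -0.03 over all genes. Counts at an unadjusted p under 0.05 are read beside 1542 of the 13160 genes tested. Of 51 lists, 13 held a called gene. The HOX genes, the homeobox factors of the body axis, held the most: 3 of 23 tested were called, all higher, 19 of 23 lay above 0, and the median was 0.18. HOXD13 had 26.2, 20.2, 23.5 and 20.3 in C1 and 6.36, 5.16, 6.96 and 6.48 in WT (1.70, adjusted p = 0.000428). HOXA13 had a difference of 0.92 (adjusted p = 0.00985) and HOXC10 of 1.19 (adjusted p = 0.0370). These 3 genes come from 3 different clusters, on chromosomes 2, 7 and 12, and are posterior members. Leaving out single libraries took the call from HOXC10 in 7 of 8 cases and from HOXA13 in 2 (C1 replicate 1 or 4). With the replicate block HOXA10 was called as well.

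Among the signalling lists, those of Wnt and of BMP and TGF-beta held calls. The lists of Notch (17 tested), FGF and EGF (20 tested) and BCR-ABL signalling (15 tested) held 0. In the Wnt list 2 of 27 tested genes were called, the receptors FZD8 (1.25, adjusted p = 0.0216) and FZD1 (0.82, adjusted p = 0.0345), both higher, while the list's median was -0.01. In the BMP and TGF-beta list BMP7 was the call among 30, with a median of 0.08. In the axon guidance list of 38, the secreted repellent SEMA3A was higher (1.57, adjusted p = 0.0284) and the ephrin receptor EPHA3 lower (-1.17, adjusted p = 0.0370). Leaving out single libraries took the call from FZD1 and EPHA3 in all 8 cases, and from FZD8 and SEMA3A in 6 of 8. With the replicate block 5 axon guidance genes were called, EPHA4, EPHB2 and NRP1 besides these. SYT1 was the call among 20 genes of synapse and exocytosis. CCND1, cyclin D1, which drives entry into S phase, was the call among 45 cell cycle genes, at 7.55 to 8.72 in C1 and 1.35 to 3.90 in WT (1.51, adjusted p = 0.0170). It was not called without C1 replicate 1, 3 or 4 or WT replicate 1 (adjusted p of 0.0615 to 0.0770).

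In the remaining lists the calls of RPL22L1, PCDH20 and ESRG lay on the other side of 0 from the list median, and the other calls on the same side. RPL22L1, a paralog of the ribosomal protein RPL22, was lower (-0.83, adjusted p = 0.0271, not called in 5 of the 8 fits without 1 library), whereas 72 of the 78 ribosomal protein genes lay above 0 and the median was 0.13. Of 386 zinc finger genes ZNF608 was called higher (1.40, adjusted p = 0.0216, lost in 6 of those 8 fits), and 277 lay above 0 with a median of 0.11. PCDH20 was called lower among 12 protocadherins of which 9 lay above 0, and lost its call in all 8 fits (adjusted p of 0.0600 to 0.154). The annexin and S100 list held ANXA1 and S100A11, with 10 of 12 genes below 0 and a median of -0.41. SPARC was the call among 36 matrix genes (median -0.13), ESRG among 13 stem cell factors (median 0.22) and SLC17A9 among 202 solute carriers (median -0.09).

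In the transport machinery around NUP58 0 genes were called in the 8-library fit against WT by limma. Of the 27 other NPC components, 20 lay below 0 and the median was -0.10, with 0 called with the replicate block. An unadjusted p under 0.05 was reached by 4 of the 27, all lower, near the share of all genes (1542 of 13160). The median was 0.02 without C1 replicate 2. NUP54, the partner of NUP58 in the channel, had 38.4 ± 6.49 in C1 and 40.7 ± 3.66 in WT (SD, n = 4 each, -0.09, adjusted p = 0.859). NUP37, a member of the outer ring complex, was lowest of the list with -0.43 (adjusted p = 0.199). Its mean was 53.2 in C1 and 60.6 to 78.6 in C2 to C6. C1 minus the mean of these clones was called for NUP37 by limma (-0.36, adjusted p = 0.0215). Of the 21 karyopherins 0 were called by limma, 5 had an unadjusted p under 0.05, 4 of them higher, and the median was 0.06, or 0.16 without WT replicate 3. TNPO2 and TNPO1, import receptors of RNA-binding proteins, had the highest values of 0.57 (adjusted p = 0.212) and 0.52 (adjusted p = 0.306), and KPNA4, importin alpha 3, had 0.50 (adjusted p = 0.211). TNPO2 had 104, 73.1, 113 and 95.4 in C1 and 56.4, 51.2, 78.2 and 73.3 in WT, and C1 replicate 2 was the lowest of its line as WT replicate 2 was of its own. With the replicate block TNPO2 was called (adjusted p = 0.0464), while TNPO1 (0.0749) and KPNA4 (0.0656) were not. C1 minus the mean of C2 to C6 was 0.10 for TNPO2, 0.002 for TNPO1 and -0.05 for KPNA4, none called by limma. Against EV, KPNA4 was called (0.62, adjusted p = 0.0402), and TNPO2 (0.44, adjusted p = 0.220) and TNPO1 (0.61, adjusted p = 0.0919) were not. Fits with more libraries called some members: with WT and EV together these were KPNA4 (adjusted p = 0.0148), TNPO1 (0.0381) and 2 NPC components, which were lower. With all 32 libraries KPNA4 (0.0382) and TNPO2 (0.0481) were higher, and 1 karyopherin and 2 NPC components lower. KPNB1, importin beta 1, had 274 ± 68.7 in C1 and 239 ± 73.7 in WT (SD, n = 4 each, 0.21, adjusted p = 0.818), with overlapping libraries.

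Some lists without a call in this fit lay mostly on 1 side. Over all genes tested, 1542 of 13160 had an unadjusted p under 0.05. All 9 tested epithelial genes were below 0 (median -0.76, 8 at an unadjusted p under 0.05), among them KRT8, CDH3 and CLDN3, and 2 of them (KRT8 and CLDN3) were called with the replicate block. Of 22 genes of cholesterol synthesis 20 were below 0 (median -0.40, 9 at an unadjusted p under 0.05), led by INSIG1 with -0.82. Of the 13 mitochondrially encoded genes 12 were below 0 (median -0.44, 6 at an unadjusted p under 0.05). With the replicate block 0 genes of the latter pair of lists were called. Of 16 NRF2 targets, the oxidative stress response, 13 were below 0 with a median of -0.21, and NQO1 was at -1.60. Of these 5 were lower and 1 higher at an unadjusted p under 0.05, and NQO1 was called with the replicate block. The p53 targets had a median of -0.05 and the ATF4 targets of 0.18, each with 0 genes at an unadjusted p under 0.05. The ATF4 median was -0.30 without C1 replicate 2, and the p53 median turned positive without C1 replicate 3 or 4 or WT replicate 1. In C1 minus the mean of C2 to C6, list medians were -0.19 (epithelial), -0.15 (cholesterol), 0.06 (mitochondrial) and -0.06 (NRF2). They were -0.0009 for HOX genes, -0.08 for annexin and S100 genes, 0.008 for ribosomal proteins, 0.01 for zinc finger genes and -0.02 for karyopherins. All lay nearer to 0 than the medians against WT, and no list was tested as a set.

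How many of the C1 calls were also seen in the other clones was counted at the study's rule of p under 0.01 and a fold over 2 against WT. The 4 WT libraries served as the control of every clone, so these counts are not independent. By that rule 159 genes (1.21%) passed for clone C2 and 52 (0.395%) for C3. The counts were 90 (0.686%) for C4, 304 (2.31%) for C5, 488 (3.65%) for C6 and 23 (0.175%) for EV. Of the 63 genes called in C1, 36 passed with the same sign in C2, while 14 did so in C3, 27 in C4, 31 each in C5 and C6, and 4 in EV. A group of 7 passed in all 5 other clones, among them SYT1, BMP7, GPR1 and TMEM132E, which were higher, and SPARC and ANXA1, which were lower. TMEM132E, a membrane protein of the nervous system, is named here for its count. BMP7 and ANXA1 also passed in EV, with means of 11.2 and 4.16. A further 8 genes passed in 4 clones, 14 in 3, 10 in 2 and 10 in 1, and 14 passed in none.

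**Figure D2:**
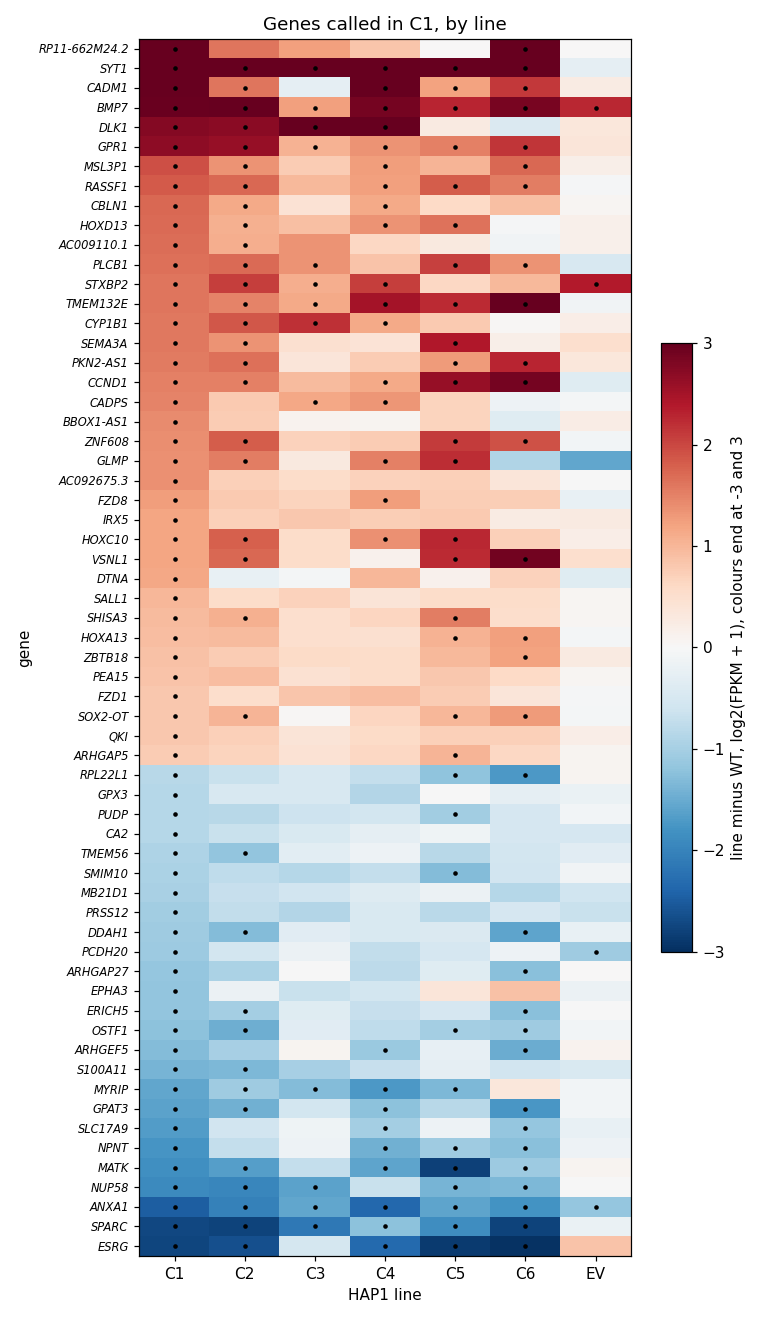
Difference from WT in log2(FPKM + 1) (colour, ending at -3 and 3) for 62 of the 63 genes called in C1 (rows, ordered by C1) in each line (columns). Dots mark genes called in C1 and, for the other lines, genes that passed p under 0.01 and a fold over 2 in the direction of C1, as 36 of the 63 did in C2 and 14 in C3.

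The 14 genes that passed in no other clone, named for this although most fall outside the naming rule, were not all absent from the other clones. Of the 8 higher ones, PEA15, an adaptor that holds ERK in the cytoplasm, had a mean of 80.9 in C1, 44.02 in WT and 61.5 to 84.9 in C2 to C6. QKI, an RNA-binding regulator of splicing, had 131 in C1, 74.2 in WT and 97.3 to 123 in the other clones, and FZD1 had 6.33, 3.15 and 4.42 to 6.98. SALL1, a zinc finger factor of kidney and limb development, had 25.1, 12.1 and 16.5 to 20.1, and the homeobox factor IRX5 15.8, 6.33 and 7.55 to 11.8. In these 5 genes and in the noncoding RNA AC092675.3 (4.67, 1.18 and 1.78 to 2.61) the means of all 5 other clones lay above that of WT. C1 minus the mean of the other clones was between 0.13 (FZD1) and 0.76 (AC092675.3) in these 6 genes, with adjusted p-values of 0.117 to 0.959, so that a difference from the sister clones was not shown.

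The remaining higher genes, DTNA and BBOX1-AS1, were too low in most lines to be tested there. DTNA, alpha-dystrobrevin, a part of the dystrophin complex, had 1.69 to 2.38 in C1, at most 0.515 in WT, and means of 0.142 to 1.71 in C2 to C6, C4 being highest. The antisense RNA BBOX1-AS1 had 1.51 to 3.32 in C1, at most 0.497 in WT and means of 0 to 1.19 in the other clones. In a fit by limma without a filter on low values C1 was above the mean of the other clones by 0.85 for DTNA (adjusted p = 0.000211) and by 1.16 for BBOX1-AS1 (adjusted p = 0.00122). Both genes had reached a mean FPKM of 1 against WT only through their C1 libraries. Their place among the called genes thus rested on high C1 values, and these p-values are not independent support.

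Of the 6 lower ones, GPX3, a secreted glutathione peroxidase, had a mean of 9.30 in C1, 17.6 in WT and 9.29 to 17.5 in the other clones. MB21D1, which encodes the DNA sensor cGAS, had 2.31 in C1, 5.53 in WT and 2.62 to 4.84, and PRSS12, the protease neurotrypsin, had 14.3, 29.99 and 16.7 to 21.9. No difference of C1 from the other clones was called in these 3 genes (adjusted p of 0.160, 0.240 and 0.835). For MB21D1 and PRSS12 the difference from EV was not called either (adjusted p of 0.256 and 0.430). The other 3 were PCDH20, CA2 and EPHA3, which did differ from the sister clones.

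The difference between C1 and the mean of the other clones was tested directly in a fit of the 32 HAP1 libraries, in which WT does not enter the contrast. Of 13180 genes 58 (0.44%) were called, C1 being higher in 25 and lower in 33. Of the 61 genes called against WT that entered this fit, 9 were among them. Where C1 had moved further than its sisters or moved without them, the levels were as follows.

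EPHA3, a receptor tyrosine kinase for ephrin-A ligands, had the smallest adjusted p among the 6 lower genes that were called against WT as well. It had 2.20, 0.890, 1.32 and 1.71 in C1, 4.16 to 5.63 in WT and 3.27 to 4.78 in EV. The means of C2 to C6 were 4.07, 2.59, 2.93, 6.23 and 9.29, so that C5 and C6 lay above WT. C1 was lower than the mean of the others by 1.14 on the log2 scale (SE 0.148, adjusted p = 3.16e-05), although its highest library overlapped the lowest of C3 (1.67) and C4 (1.76). CA2, carbonic anhydrase 2, had 10.4, 10.4, 12.8 and 12.8 in C1, 18.6 to 25.2 in WT and means of 13.3 to 20.1 in the other clones (-0.46, SE 0.0896, adjusted p = 0.00891), and its libraries overlapped those of C2, the lowest of which had 11.99. This difference lost its call without C5 (adjusted p = 0.0529), C1 replicate 1 (0.0930) or C1 replicate 2 (0.0885). EV stood between C1 and WT with 14.04 to 15.5, above all C1 libraries, but the difference of C1 from EV was not called (-0.35, adjusted p = 0.157). EPHA3 and CA2 were the only genes in the main analysis that passed against WT and against the other clones and did not pass in any other line. Neither was firm: without any 1 library the call of EPHA3 against WT was lost (adjusted p of 0.0518 to 0.154), and CA2 met the conditions in 1 of the 8 fits (without WT replicate 2). The fit without a filter named DTNA and SLITRK3 in their place. With the replicate block 12 genes met these conditions, EPHA3 and CA2 among them. In GSAP and PIGS, named after their values were seen, C1 lay below all other HAP1 libraries and differed from the other clones. GSAP had at most 0.269 in C1 and at least 0.334 elsewhere (-0.92, adjusted p = 0.0321), too low to be tested against WT. PIGS had at most 39.8 in C1 and at least 40.55 elsewhere (-0.40, adjusted p = 0.00136). Against WT it was not called (-0.18, adjusted p = 0.551).

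PCDH20, a delta-protocadherin, had 0.463, 0.223, 0.502 and 0.495 in C1, 1.73 to 2.14 in WT and means of 0.810 to 1.75 in the other clones (-0.66, adjusted p = 0.0152). EV was as low as C1, with a mean of 0.450, and the difference lost its call without any 1 of the C1 libraries (adjusted p of 0.0543 to 0.124) or without C6 (0.0742). SLC17A9 had 6.00, 6.02, 5.38 and 2.80 in C1 and means of 12.01, 16.8, 8.66, 16.2 and 7.58 in C2 to C6 (-1.08, adjusted p = 0.00202). NPNT was lower than the other clones by 0.84 (adjusted p = 0.0447) and ARHGEF5 by 0.55 (adjusted p = 0.0447). ARHGEF5 was lower still in C6, at a mean of 0.148 against 0.305 in C1, and near WT in C3 with 2.41. Its test against the other clones did not hold without C3 (adjusted p = 0.377) or without C5 (0.447), nor without any 1 C1 library (0.0956 to 0.214). That of NPNT did not hold without C3 (0.188), C5 (0.0867) or C1 replicate 1, 3 or 4 (0.141 to 0.301).

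CADM1, CBLN1 and HOXD13 were the higher genes. CADM1 was above the mean of the others by 1.44 (SE 0.220, adjusted p = 0.000464). The clones differed among themselves, with means for C2 to C6 of 3.89, 0.242, 14.5, 2.60 and 5.57 against 11.6 in C1, so that C4 was not below C1 and C3 was at the level of WT. CBLN1 had 5.30, 9.04, 5.29 and 7.84 in C1 and means of 2.28 to 4.34 in the other clones (0.86, adjusted p = 0.00441), a difference not called without C1 replicate 2 (adjusted p = 0.0746) or 4 (0.0554). HOXD13 was above the others by 0.72 (adjusted p = 0.00260), with means of 14.5, 12.4, 17.7 and 21.3 in C2 to C5 and of 6.06, the level of WT, in C6. Without C6 the difference was 0.47 (adjusted p = 0.265).

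**Figure D3:**
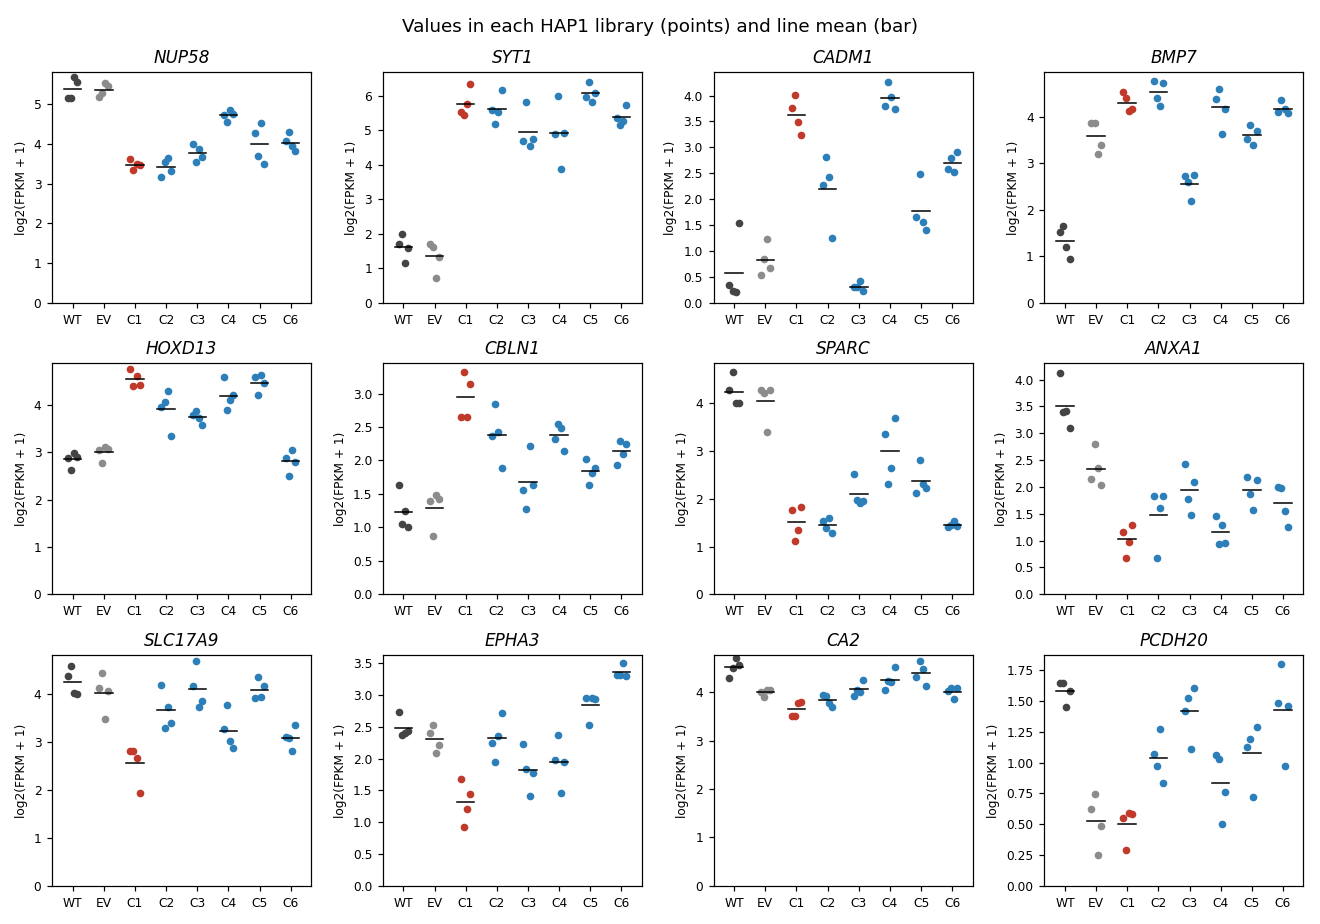
log2(FPKM + 1) (vertical axis, from 0) in each of the 4 libraries (points) and its mean (bar) for WT, EV and the clones C1 (red) to C6 (horizontal axis), for 12 genes. C1 stood below the WT libraries in NUP58, SPARC, ANXA1, SLC17A9, EPHA3, CA2 and PCDH20 and above them in the other 5. EV was near WT except in BMP7, ANXA1, CA2 and PCDH20.

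In 4 more genes C1 differed from the other clones and passed p under 0.01 and 2-fold against WT, but not the adjusted threshold. With the replicate block 3 of them were called against WT, DAZL, HMSD (adjusted p = 0.0353) and ABCB1 (0.0420), and CNTNAP2 was not (0.0796). These and the genes in the next paragraph were named after their values were seen. DAZL, a germ cell RNA-binding protein, had 5.94, 14.99, 3.28 and 6.95 in C1, 0.612 to 3.11 in WT and 0.466 to 3.72 in the 20 other clone libraries (1.59, adjusted p = 0.00183). Against WT its adjusted p was 0.199, or 0.0261 with the replicate block. EV had 1.89 to 5.85, overlapping C1, and the difference of C1 from EV was not called (0.82, adjusted p = 0.323). HMSD, a serpin-related gene, had at most 0.330 in C1, 1.11 to 2.97 in WT and means of 0.749 to 5.07 in the other clones (-1.67, adjusted p = 0.000464). EV had a mean of 0.458, also below WT. ABCB1, the drug efflux pump, had 0.767 to 2.98 in C1 and 3.33 to 5.80 in WT, with means for C2 to C6 of 3.96, 2.63, 1.53, 14.5 and 27.9 (-1.39, adjusted p = 8.27e-06). C4 was thus as low as C1 and passed against WT too, and C5 and C6 lay above WT. For ABCB1 the difference of C1 from EV was not called (-0.64, adjusted p = 0.215). CNTNAP2, a neuronal adhesion protein, had 0.806 to 2.62 in C1, 3.71 to 6.59 in WT and means of 2.01 to 8.43 in the others (-0.90, adjusted p = 0.000464), a difference not called without C5 (-0.65, adjusted p = 0.0620). From EV its difference was -0.75 (adjusted p = 0.155).

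In 5 of the 58 genes C1 was within 0.5 of WT on the log2 scale while the mean of the other clones was more than 1 away from WT. C1 was above the other clones in 1 of these genes and below them in 4. MFAP2, a microfibril protein, had 0.209 to 0.496 in C1, 0.239 to 0.746 in WT and 0.982 to 28.8 in the other 20 clone libraries, none of which overlapped C1 (-2.19, adjusted p = 3.68e-07). NELL2, a secreted neural protein, had 7.68 to 12.5 in C1, 8.17 to 10.2 in WT and 14.4 to 44.7 in the other clones (-1.07, adjusted p = 3.58e-06), but EV was also high with 19.2. GTSF1, a factor of the piRNA pathway, had 6.204 to 15.2 in C1, 8.32 to 17.0 in WT and means of 1.10 to 8.63 in the others (1.30, adjusted p = 0.000703). SLC43A3, a purine transporter, was not among these 5 genes, since C1 differed from WT by -0.78 (adjusted p = 0.175 by limma, not called). It lay below most WT libraries but above all other clones. Its values were 5.49 to 9.49 in C1, 8.11 to 15.9 in WT and at most 5.09 in C2 to C6 (1.11, adjusted p = 0.00758).

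The 58 genes were also counted by chromosome. Of the 25 that were higher in C1, 12 lay on chromosome 13 and 4 on chromosome X, which held 240 and 461 of the genes tested against WT. Of the 33 that were lower, 7 lay on chromosome 7, which held 660. The median difference from WT over the genes of chromosome 13 was -0.02 in C1, -0.58 in C5 and -0.52 in C6, and over those of chromosome X it was -0.01 in C1 and -0.55 in C5. On chromosome 7 the medians were -0.02 in C1, 0.05 in C5 and 0.02 in C6. The part of these shifts in the direct calls was not tested. Without C5 the genes called higher in C1 fell from 25 to 12, and without C6 to 7, while the genes called lower went from 33 to 24 and 18. Without C2, C3 or C4 the counts rose instead, to between 49 and 64 higher and between 52 and 60 lower.

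EV, which was transfected without a guide, gave a second reference for the C1 calls. Of the 62 called genes that could be tested against EV, 61 had the same sign and 52 were called there too, among 208 genes called in that fit. The same 4 C1 libraries had served to choose these genes, so this agreement is not independent. The exception was STXBP2, a partner of syntaxins in exocytosis, which had a mean of 13.7 in C1, 3.84 in WT and 23.6 in EV. For GLMP, a lysosomal membrane protein, EV lay on the other side of WT, with 10.9 in C1, 3.68 in WT and 0.568 in EV. SYT1 and SPARC were as far from EV as from WT, with differences of 4.43 (adjusted p = 2.48e-05) and -2.53 (adjusted p = 0.000635). ANXA1 was between, with -1.31 against EV (adjusted p = 0.0201) and -2.48 against WT.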

How the data were processed

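Total RNA was isolated with a column kit and made into Illumina TruSeq libraries, with the enrichment step not given in the sources used here. After adaptor trimming, the authors mapped reads with STAR (genome GRCh38.p13), and RSEM gave the FPKM values they deposited for 57507 genes, without normalization between libraries. The submitters' processing notes also name FastQC. Libraries were grouped by their titles.

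Values were analysed as log2(FPKM + 1), keeping genes whose FPKM averaged 1 or more across the fitted libraries. The test was limma 3.58.1 in R 4.3.3 (lmFit, eBayes with trend) with Benjamini-Hochberg adjustment, in fits of 8 libraries against WT or EV and 1 fit of 32 libraries for C1 minus the mean of C2 to C6. Single-gene permutation tests were exact and two-sided. Python (3.11.15) with pandas (2.3.3) and numpy (2.4.6) made the tables, and matplotlib (3.10.9) the figures.

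Deviations of same-numbered C1 and WT libraries from their line means correlated at 0.153, 0.476, 0.15 and 0.332, all over 0.1, a pairing taken from the labels' replicate numbers. Different-numbered pairs ran from -0.362 to 0.301 (C1 replicate 4 with WT replicate 3), so that the pairing was plain for replicates 2 and 4 only. A replicate block was an alternative, as were another pseudocount, filter, scaling or reference, no trend, an unmoderated test and leaving out libraries or clones.

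Named genes were NUP58, the 12 highest and 12 lowest called genes without overlap, genes particular to C1 (up to 10 a direction), called members of 51 gene lists, and NUP54, KPNA4, KPNB1, TNPO1 and TNPO2. The members and lists were chosen with earlier results of these data known. One of these genes is not reported here. Older gene symbols of the table were matched by Ensembl identifier. Positions came from GENCODE release 44 (99.2% of tested genes). p-values measure the spread between experimental replicates of 1 clone.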

Additional observations from a re-analysis of the deposited data

Results flagged for a closer look

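In 5 of the 80 groups of 4 libraries tested (C1 and WT for 40 named genes), 1 library stood far from the other 3, measured as the gap to its neighbour divided by the range and held against Dixon's critical value for 4 values. Chance gives about 1 such group in 20. They were the highest WT library for CADM1 (0.933), DLK1 (0.945) and EPHA3 (0.833), the highest C1 library for GPR1 (0.914) and the lowest C1 library for PCDH20 (0.86).

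The 58 genes are those in which C1 minus the mean of C2 to C6 had an adjusted p under 0.05 by limma. Of these, 13 also passed either rule against WT. The difference of C1 minus the mean of C2 to C6 was 1.59 for DAZL, 1.44 for CADM1, 0.86 for CBLN1 and 0.72 for HOXD13. On the lower side it was -1.67 for HMSD, -1.40 for ABCB1, -1.14 for EPHA3, -1.08 for SLC17A9, -0.90 for CNTNAP2, -0.84 for NPNT, -0.66 for PCDH20, -0.55 for ARHGEF5 and -0.46 for CA2.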

How the results depend on the processing

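No named gene reversed its direction under any alternative, and all 63 called genes kept their direction wherever tested except 1 of 62 against EV. Counts moved more. The genes called higher and lower were 38 and 25, and 17 and 12 without a filter, 21 and 15 at a mean FPKM of at least 5, 92 and 105 with the replicate block, 122 and 86 against EV, 254 and 341 against WT and EV together, and 184 and 253 with all 32 libraries in 1 fit. Without a trend 45 were lower, and an unequal-variance test without moderation called 2 higher and 0 lower (40 and 33 at p and fold) and gave NUP58 an adjusted p of 0.118 at -1.91. Leaving out single libraries gave 10 to 41 higher and 7 to 35 lower. At p and fold, 22 higher and 25 lower genes passed at a mean FPKM of at least 5, 102 lower with a pseudocount of 0.1 and 84 lower with TPM scaling, and leaving out libraries gave 58 to 75 higher and 41 to 88 lower.

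Genes with C1 apart from the other clones were 25 higher and 33 lower. They were 48 and 63 without a filter, 14 and 9 at a mean FPKM of at least 5, 67 and 72 with the replicate block, 15 higher with clone libraries only, 49 and 52 without C2, 58 and 57 without C3, 64 and 60 without C4, 12 higher without C5, 7 and 18 without C6, and 13 to 17 and 17 to 27 without single C1 libraries. Genes particular to C1 were 2 (EPHA3 and CA2), also 2 but different ones (DTNA and SLITRK3) without a filter, and 1 with a pseudocount of 0.1, at a mean FPKM of at least 5 or without C5, 4 with TPM scaling or against EV, 9 against WT and EV together, 12 with the block or all libraries, 0 in the unmoderated test, and 0 to 3 without single libraries. EPHA3 was called against WT in none of the 8 fits without 1 library. Among genes the text names, the block added the calls against WT of TNPO2, DAZL, HMSD, ABCB1 and the list members given as called with it. The cause of these changes was not tested. Depth is unknown in fragments, which limits low genes most.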
